A study of Mus musculus with 6 samples.

Results

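The genes examined here were the 10 genes of the common gamma-chain cytokine system that were taken by symbol from the deposited table of 21720 gene symbols, namely the ligand genes Il2, Il7 and Il15 and the receptor genes Il2ra, Il2rb, Il2rg, Il7r, Il15ra, Il21r and Il4ra. All 10 symbols were found, 9 passed the filter on low counts, and Il2 did not because it was listed at 0 in every library. The libraries came from H22 tumours. H22 is a mouse hepatocellular carcinoma line, and its cells were grown under the skin of wild-type female BALB/c mice aged 6 to 8 weeks, so the tumours were not in the liver. Mice of the control group received 0.5% carboxymethyl cellulose sodium and mice of the luteolin group 200 mg/kg luteolin, a plant flavonoid, by gavage of 0.2 mL each day for 21 days, starting at a tumour volume of about 50 mm3. Each group gave 3 libraries of total RNA from whole tumour. Neither the labels nor the methods say that each library is a separate mouse, so p values measure the spread between libraries. The comparison of the luteolin group with the control group asks which genes of this cytokine system differed after treatment.

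The common gamma chain, encoded by Il2rg, is the receptor subunit that the cytokines IL-2, IL-4, IL-7, IL-9, IL-15 and IL-21 share, and each of them adds at least another chain that gives the receptor its specificity. Binding of the cytokine brings together the kinases JAK1 and JAK3, which phosphorylate STAT proteins, chiefly STAT5 for IL-2, IL-7 and IL-15, STAT6 for IL-4 and STAT3 for IL-21. These cytokines are known for supporting the growth and survival of T cells, B cells and natural killer (NK) cells, while IL-4 also acts on macrophages, and IL-15 is presented to neighbouring cells by IL-15 receptor alpha on myeloid cells.

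Library totals ranged from 61081637 to 80442954 estimated counts. All values below are CPM, counts scaled to a common library total (10 to the power of 6) by the TMM method, unless counts are named. Luteolin replicate 2 stood apart from the other libraries. The summed level of 11 keratinocyte genes was 9345 CPM in it, 416 in luteolin replicate 1 and 17.3 in luteolin replicate 3, against 4.09 to 5.08 in the control libraries, and its part in the results was not tested. Fold changes of the genes of the system, and of other genes where it matters to a call or to the size, are also given without that library. Of the liver markers, Afp (alpha-fetoprotein) had between 2000 and 4316 counts in every library, Alb (albumin) ranged from 56 to 8118 counts, and Hnf4a was at 0 counts in 3 of the 6 libraries.

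All 9 tested genes of the system had a higher fitted level in the luteolin group, as did 49.3% of all genes tested. In 8 of them, Il7 being the exception, every luteolin library lay above every control library, which held for 15.9% of all 14963 genes tested, and in 0 of them did every luteolin library lie below, which held for 12.8%. At an adjusted p under 0.05 (quasi-likelihood test of edgeR, adjusted by Benjamini-Hochberg over all genes tested) Il2ra and Il2rg rose, 2 of 9, where 1.34% of all genes tested were higher and 0.187% lower by the same rule. The study's own threshold asks for a fold change over 2 and an unadjusted p under 0.05. The study used values from DESeq2, whereas the threshold is applied here to edgeR values unless another method is named. By it the 6 genes Il15, Il2ra, Il2rb, Il7r, Il15ra and Il21r were higher and 0 were lower, where 11.3% of all genes tested were higher and 1.52% lower. An unadjusted p under 0.05 was reached by 8 of the 9 genes in edgeR, all of them higher in the luteolin group, where 14% of all genes tested were higher and 6.44% lower by that rule. DESeq2 gave an adjusted p under 0.05 for 7 of the 9, all higher, where it called 9.58% of its 16114 genes higher and 2.58% lower. The median log2 fold change of the 9 genes was 1.80, and 1.38 without luteolin replicate 2, against -0.0073 and -0.015 over all genes tested.

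**Figure D1:**
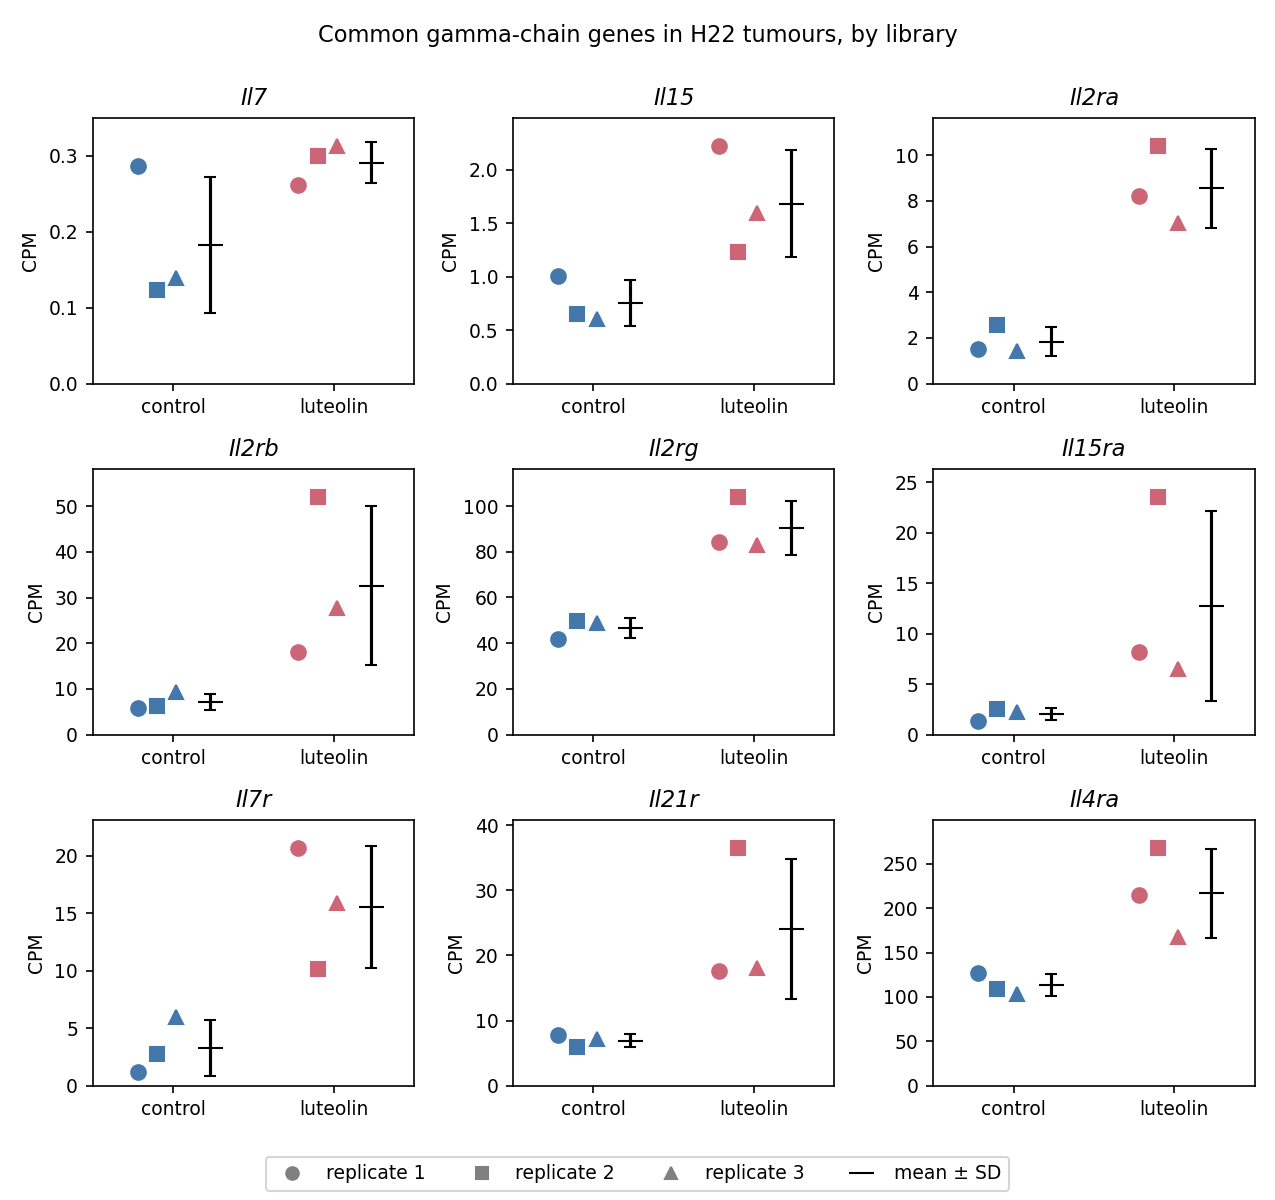
Level of the 9 tested genes in CPM (vertical axes, starting at 0) in each control and luteolin library, with 1 marker shape for each replicate number and the mean ± SD of 3 libraries in black. For 8 genes the 3 luteolin libraries lie above the 3 control libraries, while for Il7 control replicate 1 lies within the luteolin range.

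Il2ra encodes CD25, the alpha chain that raises the affinity of the IL-2 receptor and that marks regulatory and recently activated T cells. It had 1.5, 2.58 and 1.43 CPM in control replicates 1, 2 and 3 and 8.23, 10.4 and 7.01 CPM in luteolin replicates 1, 2 and 3. The groups were far apart, and no luteolin library came near the highest control library. Il2ra rose with a log2 fold change of 2.22 ± 0.38 (SE, adjusted p = 0.0487 in edgeR), a 4.65-fold difference. Without luteolin replicate 2 its log2 fold change was 2.07 (adjusted p = 0.0455). Leaving out any of the other 5 libraries kept the log2 fold change between 2.05 and 2.52, but the adjusted p then lay between 0.0630 and 0.207.

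Il2rg encodes the common gamma chain itself, which all lymphocytes and many myeloid cells carry. It had 41.8, 49.9 and 48.6 CPM in the control libraries and 84.4, 104 and 82.8 CPM in the luteolin libraries, in the order of their numbers. The libraries of each group lay close together, and the gap between the groups exceeded the spread within them. Il2rg rose 1.93-fold, with a log2 fold change of 0.95 ± 0.16 (SE, adjusted p = 0.0480 in edgeR), which is just under the fold change threshold of the study. When any single library was left out, its log2 fold change lay between 0.84 and 1.00 and the adjusted p between 0.0528 and 0.224, so that the call was lost each time.

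The stretches before the start sites of Il2ra and Il2rg are shown because these were the members that passed the adjusted threshold. RefSeq windows of 250 bases before to 50 bases after a start site on GRCm38.p6 were found for 7 of the 10 genes (8 windows, of which 2 belong to Il15ra), and Il2rb, Il7 and Il15 were not matched. The bases given are the 250 before the start site, read 5′ to 3′ on the strand of the gene. Capitals mark a match to the NF-κB-type pattern of GGGA, 4 bases of any kind and CC, searched on both strands. Il2ra lies at chr2:11642542-11642791, plus strand, and Il2rg at chrX:101268256-101268505, minus strand.
Il2ra: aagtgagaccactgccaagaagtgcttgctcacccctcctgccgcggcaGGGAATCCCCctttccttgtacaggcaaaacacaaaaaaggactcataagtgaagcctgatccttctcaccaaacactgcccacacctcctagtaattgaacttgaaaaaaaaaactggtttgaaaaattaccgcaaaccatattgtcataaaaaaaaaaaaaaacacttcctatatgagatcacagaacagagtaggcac
Il2rg: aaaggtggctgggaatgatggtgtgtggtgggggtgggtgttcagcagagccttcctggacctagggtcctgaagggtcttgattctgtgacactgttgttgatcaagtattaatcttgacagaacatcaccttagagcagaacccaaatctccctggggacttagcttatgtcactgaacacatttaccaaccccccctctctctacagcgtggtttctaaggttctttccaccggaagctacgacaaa
The pattern occurred in 2 of the 8 windows, those of Il2ra and Il21r, and in 20.7% of all 32851 windows of that length. A match says only that these letters are present.

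Il2rb encodes CD122, the beta chain that IL-2 and IL-15 receptors share and that is high on NK cells and CD8+ T cells. Its level was 5.90, 6.35 and 9.26 CPM in control replicates 1, 2 and 3 and 18.2, 52.0 and 27.6 CPM in luteolin replicates 1, 2 and 3. The luteolin libraries lay above the controls but differed widely among themselves, with luteolin replicate 2 highest. The log2 fold change was 2.19 ± 0.42 (SE, adjusted p = 0.0620 in edgeR), past the study's threshold and short of the adjusted p threshold. Without luteolin replicate 2 it was 1.70 ± 0.29 (SE, adjusted p = 0.0443).

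Il15 encodes the cytokine that sustains NK cells and memory CD8+ T cells. It had 70, 42 and 39 counts in the control libraries and 136, 103 and 102 in the luteolin libraries, which is 1.00, 0.649 and 0.605 CPM against 2.22, 1.23 and 1.6 CPM. The groups did not overlap, although control replicate 1 and luteolin replicate 2 were close. The counts of Il15 may stand for fewer read pairs. The log2 fold change was 1.16 (95% confidence interval 0.0048 to 2.31, adjusted p = 0.243 in edgeR), and its unadjusted p of 0.0493 was just inside the study's threshold. Without luteolin replicate 2, which was the lowest of the luteolin libraries, the log2 fold change was 1.36 and still inside that threshold, while leaving out any other library put it outside.

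Il15ra encodes the chain that binds IL-15 with high affinity and presents it to cells with the beta and gamma chains. It had the largest fold change of the 9 genes, with 1.35, 2.56 and 2.22 CPM in the control libraries and 8.16, 23.6 and 6.56 CPM in the luteolin libraries. Luteolin replicate 2 alone was far above the others, and luteolin replicates 1 and 3 still lay above every control. Its log2 fold change was 2.64 ± 0.58 (SE, adjusted p = 0.0806 in edgeR), and it was 1.87 ± 0.36 (SE, adjusted p = 0.0572) without luteolin replicate 2.

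Il7 encodes a cytokine that stromal and epithelial cells make and that keeps resting T cells alive. It was the less abundant of the ligand genes Il7 and Il15, with 20, 8 and 9 counts in the control libraries and 16, 25 and 20 in the luteolin libraries. Control replicate 1 lay between luteolin libraries, so the groups overlapped. The log2 fold change of 0.66 (95% confidence interval -0.94 to 2.27, adjusted p = 0.648 in edgeR) does not settle whether Il7 differed at this depth, where 1 read pair may stand for 4 counts.

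Il7r encodes CD127, the alpha chain of the IL-7 receptor, carried by naive and memory T cells and innate lymphoid cells. The control libraries differed widely, with 1.14, 2.73 and 5.94 CPM, and the luteolin libraries had 20.7, 10.1 and 15.9 CPM. All luteolin values were above all control values, with luteolin replicate 1 highest and luteolin replicate 2 lowest of the luteolin group. The log2 fold change was 2.25 ± 0.62 (SE, adjusted p = 0.118 in edgeR) and it was 2.5 (adjusted p = 0.0982) without luteolin replicate 2.

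Il21r encodes the receptor chain for IL-21, a product of follicular helper and NKT cells. It had 7.74, 5.90 and 7.15 CPM in the control libraries and 17.6, 36.5 and 18.1 CPM in the luteolin libraries. The controls were tight, luteolin replicates 1 and 3 were close to each other, and luteolin replicate 2 lay above both. This gave a log2 fold change of 1.80 ± 0.35 (SE, adjusted p = 0.0620 in edgeR). Without luteolin replicate 2 it was smaller, 1.38, with a smaller standard error of 0.22 and an adjusted p of 0.0382.

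Il4ra encodes the alpha chain that binds IL-4 and, with IL-13 receptor alpha 1, also serves IL-13, and it is present on macrophages and non-haematopoietic cells as well as lymphocytes. It was 127, 109 and 103 CPM in the control libraries and 215, 268 and 168 CPM in the luteolin libraries. The groups did not overlap, and the luteolin libraries were more widely spread. Its difference as log2 fold change was 0.94 ± 0.20 (SE, adjusted p = 0.0776 in edgeR), below the study's fold change threshold, and 0.77 without luteolin replicate 2.

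Il2 encodes the cytokine after which the receptor is named, made mainly by activated CD4+ T cells in short bursts. It was listed at 0 counts in all 6 libraries, and a count of 0 allows at most 3 counts, or 0.0359 to 0.0490 CPM depending on the library (12 counts, or 0.144 to 0.196 CPM, where 1 read pair counts as 4). These limits cover counting error only. Il2 transcripts were therefore not detectable at this depth in either group, while the transcripts of its 3 receptor chains were present in every library.

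**Figure D2:**
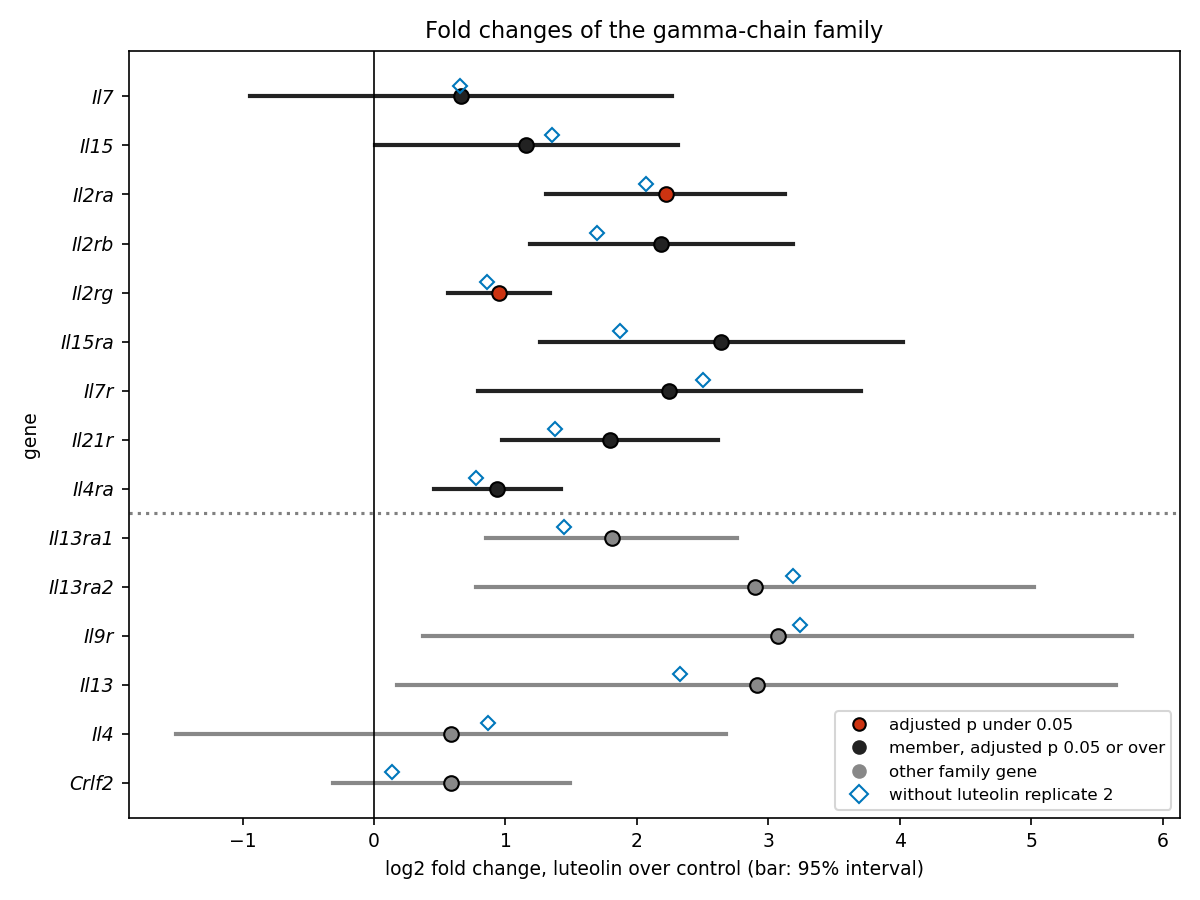
Log2 fold change of the luteolin over the control group for the 9 tested genes and, below the dotted line, 6 further genes of the family, with 95% confidence intervals as bars and open diamonds for the value without luteolin replicate 2. The red points are Il2ra at 2.22 and Il2rg at 0.95, which had an adjusted p under 0.05, and the interval of Il7 spans 0.

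Levels of different genes were compared per kilobase of exon. The common gamma chain and Il4ra were the most abundant in both groups, with 19.6 ± 1.83 and 18.8 ± 2.07 CPM per kb in the control group and 37.9 ± 4.94 and 36.1 ± 8.35 in the luteolin group (SD, n = 3), and their ranges overlapped in each group. Il21r and Il2rb followed in the control group at 2.08 ± 0.283 and 1.67 ± 0.426 CPM per kb, and in the luteolin group Il2rb had 7.61 ± 4.07 and Il21r 7.24 ± 3.24, again with overlapping ranges. Every library held less of these genes than of Il2rg and Il4ra. Il7r, Il15ra, Il15 and Il2ra formed the next tier in the control group, at 0.702 ± 0.524, 0.459 ± 0.141, 0.332 ± 0.0962 and 0.321 ± 0.113 CPM per kb, and no neighbours in that order were separate. In the luteolin group the order below Il21r was Il7r at 3.33 ± 1.13, Il15ra at 2.87 ± 2.11, Il2ra at 1.5 ± 0.301 and Il15 at 0.744 ± 0.221 CPM per kb. The ranges of Il7r and Il15ra overlapped there, as did those of Il15ra and Il2ra, whereas the range of Il2ra lay wholly above that of Il15. Within each luteolin library Il15ra was nevertheless above Il2ra. Il7 was lowest in both groups, at 0.0323 ± 0.0158 and 0.0514 ± 0.00473 CPM per kb, and lay below every other detected gene in each library.

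**Figure D3:**
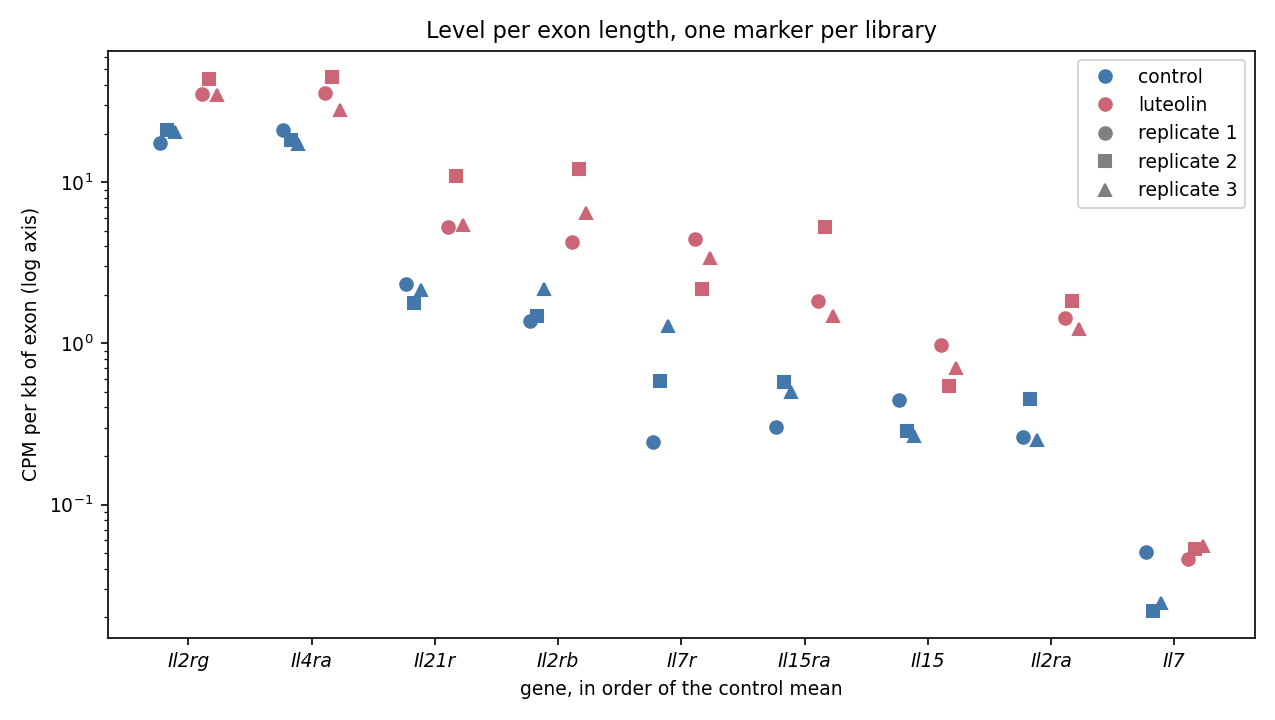
Level of the 9 detected genes in CPM per kilobase of exon (log axis) in each library, with genes in the order of the control mean and marker shapes for replicate numbers. Il2rg and Il4ra lie above all other genes in every library, and the mean of Il2ra lies just below that of Il15 in the control group and above it in the luteolin group.

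Changes of the receptor genes were set against those of 14 T-cell genes and 10 macrophage genes, since in whole tumour more cells of a type and more RNA per cell cannot be told apart. The mean of the T-cell genes was 2.20 higher in the luteolin group on the log2 scale, and the mean of the macrophage genes 0.83 higher. Relative to the T-cell mean in the same library, Il2ra differed between the groups by 0.04 and Il2rb by -0.12 on the log2 scale (exact two-sided permutation tests over libraries, p = 0.9 and 0.7). Il15ra and Il7r differed by 0.24 and 0.28 in the same measure (exact p = 0.6 and 0.7). For these 4 genes the libraries of the groups overlapped once the T-cell mean was taken off. Il2rg, Il4ra, Il21r and Il7 were lower relative to the T-cell mean in the luteolin libraries, without overlap with the controls, by 1.25, 1.28, 0.48 and 1.53 on the log2 scale. The exact permutation test gave p = 0.1 for each of these 4 genes, the smallest value that 3 libraries against 3 allow, and 0.225 after adjustment over the 18 comparisons with T-cell and macrophage genes. Il15 was 1.07 lower on that measure, with overlapping libraries (exact p = 0.2). Relative to the macrophage mean, Il2rg and Il4ra differed by 0.11 and 0.08 (exact permutation test, p = 0.6 and 0.8), while Il2ra, Il2rb, Il15ra and Il21r were higher in the luteolin libraries, again without overlap, by 1.40, 1.24, 1.6 and 0.88 (exact p = 0.1 for each, adjusted 0.225). Il7r differed by 1.64 on this measure, the largest of these differences, but with overlapping libraries (exact p = 0.2). Il15 and Il7 differed by 0.29 and -0.17, also with overlap (exact p = 0.7 and 0.8). A p that misses the threshold does not show that the genes moved alike, and with these library numbers no exact test can pass 0.05.

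**Figure D4:**
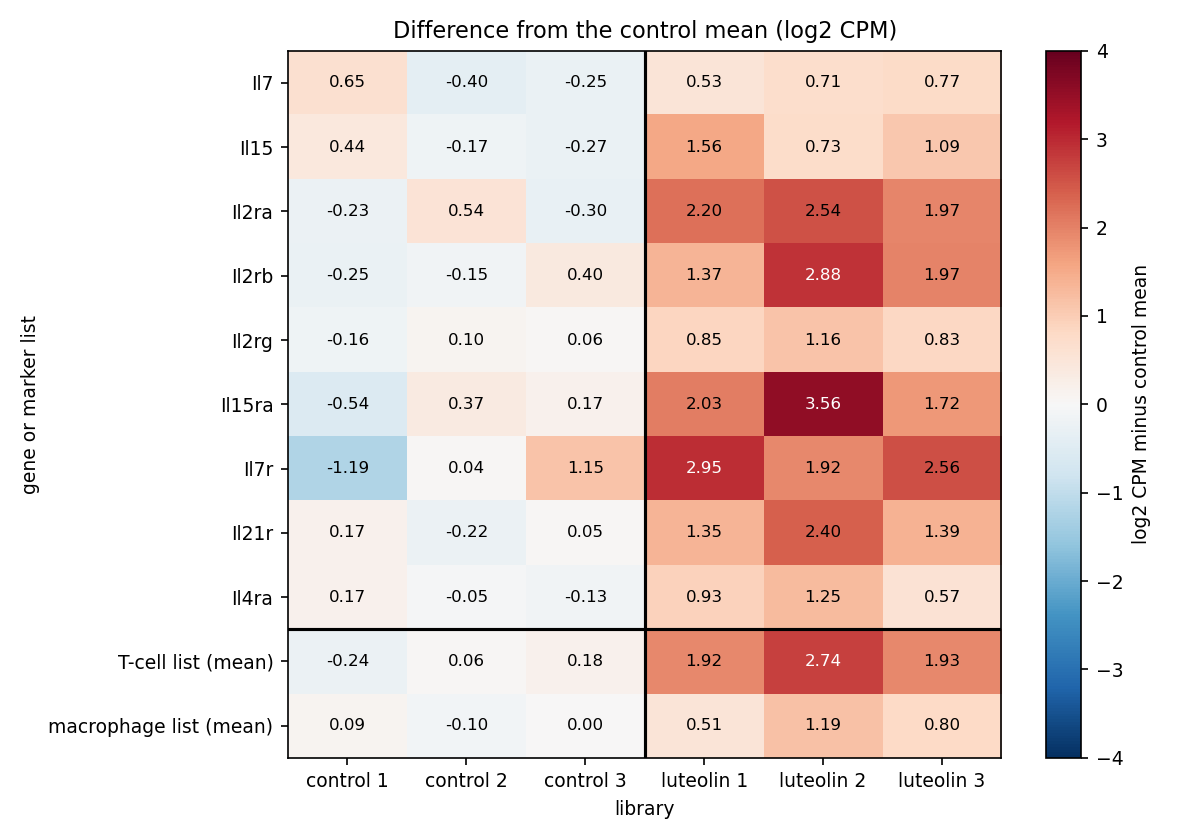
Log2 CPM minus the control mean (colour and printed value) for the 9 tested genes and, below the line, the mean of the T-cell and of the macrophage genes, by library. Il15ra reaches 3.56 and Il2rb 2.88 in luteolin replicate 2, where the T-cell mean is at 2.74, while Il7r is highest in luteolin replicate 1 at 2.95.

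The libraries of the luteolin group did not rank the genes alike. Luteolin replicate 2 was highest for 6 of the 9 genes (Il2ra, Il2rb, Il2rg, Il15ra, Il21r and Il4ra), luteolin replicate 1 for Il15 and Il7r, and luteolin replicate 3 for Il7. The T-cell genes summed to 129, 242 and 125 CPM in luteolin replicates 1, 2 and 3 against 35.4 to 41.1 in the controls, and the macrophage genes to 2075, 3567 and 2946 CPM against 1764 to 2131. Of the T-cell genes, Thy1 was the most abundant, with a mean of 54.4 CPM over all libraries. It made up a large part of the sum, with 68.5, 136 and 59.6 CPM in luteolin replicates 1, 2 and 3 and 19.6 to 22.1 in the controls. Of the 14 genes, 13 lay above the controls in every luteolin library, where 15.9% of all genes tested did. The 9 regulatory T-cell genes, led by Tnfrsf9, summed to 57.6 to 106 CPM in the luteolin group against 29.2 to 32.2, and Foxp3 of this list had a log2 fold change of 1.26 (adjusted p = 0.188 in edgeR), or 0.90 without luteolin replicate 2. The 12 NK-cell genes, of which 1 was at 0 in every library and 2 were at 0 in all controls, summed to 87.3 to 104 CPM against 74.7 to 104. This sum was mostly Eomes, at 82.0 ± 11.1 CPM in control and 45.2 ± 8.05 CPM in luteolin libraries (SD, n = 3), and the other 11 genes, a set formed after these values were seen, summed to 37.6 to 68.3 CPM against 4.46 to 12. The part of these cell markers in the values of the receptor genes was not tested.

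Subunits of a receptor and pairs of ligand and receptor were compared within libraries. Il2rb lay below Il2rg by 2.82, 2.97 and 2.39 on the log2 CPM scale in control replicates 1, 2 and 3 and by 2.21, 1.00 and 1.58 in luteolin replicates 1, 2 and 3. The beta chain was thus closer to the gamma chain in each luteolin library, by 1.13 on average (exact two-sided permutation test, p = 0.1, adjusted 0.267 over 4 pairs). Il2ra relative to Il2rb differed between the groups by 0.16, with overlapping libraries (exact p = 0.8). Il15 relative to Il15ra changed by -1.31 and Il7 relative to Il7r by -1.81, and for both pairs control and luteolin libraries overlapped (exact p = 0.2, adjusted 0.267). The first difference was -0.55 without luteolin replicate 2, and -0.82 without control replicate 1. The second was -0.89 without control replicate 1.

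Other genes of the family were examined next. Il13ra1, the partner of Il4ra in the type II IL-4 receptor, had 5.37, 5.37 and 10.2 CPM in the control libraries and 20.6, 35.7 and 16.9 CPM in the luteolin libraries, a log2 fold change of 1.81 ± 0.40 (SE, adjusted p = 0.0815 in edgeR). Il13ra2, a receptor for IL-13 without signalling through JAK kinases, had 4, 33 and 20 counts against 240, 108 and 86 (log2 fold change 2.90, adjusted p = 0.149). Neither pair of groups overlapped. Il9r had 0, 4 and 8 counts in the control and 21, 35 and 53 in the luteolin libraries, and Il13 had 8, 0 and 4 against 13, 64 and 25. Il4 overlapped between the groups, with 9, 34 and 5 counts against 23, 19 and 32, and so did Crlf2, the chain that binds TSLP together with Il7r, at 10.9, 8.59 and 8.78 CPM against 8.39, 22.1 and 12.1 CPM. The log2 fold change of Crlf2 was 0.59, and 0.14 without luteolin replicate 2. Il9, Il21 and Tslp did not pass the filter, Il9 being at 0 in all libraries but luteolin replicate 2, which had 3 counts, and Il21 having 0, 4 and 4 counts in the control and 21, 0 and 25 in the luteolin libraries. Tslp had 4, 5 and 9 counts against 0, 28 and 8. Of the 6 further family genes tested, 4 were higher at the study's threshold, where 11.3% of all genes tested were. In edgeR 0 of the 6 passed the adjusted threshold, while 2 did in DESeq2. The 4 include Il9r and Il13, with log2 fold changes of 3.07 and 2.91. Their control counts of 0 to 8 may stand for very few read pairs. Without luteolin replicate 2, Il13 fell outside the study's threshold (log2 fold change 2.32, unadjusted p = 0.124 in edgeR).

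Downstream of the receptors, 15 genes for kinases, STAT proteins and adaptors were tested. At the study's threshold 4 were higher and 0 lower, where 11.3% of all genes tested were higher and 1.52% lower. The adjusted threshold was passed by 1 (Syk), and the median log2 fold change was 0.71, or 0.47 without luteolin replicate 2. Syk, a kinase that binds the IL-2 receptor beta chain and immune receptors, rose from 37.0 ± 4.40 to 110 ± 34 CPM (SD, n = 3), a log2 fold change of 1.57 (adjusted p = 0.0403 in edgeR), and of 1.31 without luteolin replicate 2. Lck, a T-cell kinase, had 3.57 ± 0.642 and 14.0 ± 5.97 CPM, and Stat5b 7.73 ± 1.13 and 30 ± 15.6 CPM in the control and luteolin group, with log2 fold changes of 1.97 and 1.96 (adjusted p = 0.0620 and 0.0635). Without luteolin replicate 2 these were 1.6 and 1.46 (adjusted p = 0.0528 and 0.0315). Jak1, which pairs with the specific receptor chains, had a log2 fold change of 1.1, and Jak3, which pairs with the gamma chain, of 0.81 (adjusted p = 0.0957 and 0.197), and without luteolin replicate 2 these were 0.81, outside the study's threshold, and 0.48. Stat6, the factor used by IL-4, was the only one of the 15 genes with a negative log2 fold change, at -0.22 (95% confidence interval -0.52 to 0.08), and each luteolin library lay below each control library.

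Among 16 feedback and target genes of these cytokines, 7 were higher and 0 lower at the study's threshold. By that rule 11.3% of all genes tested were higher and 1.52% lower. Without luteolin replicate 2, Socs1 and Bcl6 fell outside it at log2 fold changes of 0.84 and 0.64. So did Lta, at 1.25 with an unadjusted p of 0.234 in edgeR. The adjusted threshold was passed by 1 gene. That gene was Prdm1, which encodes the factor Blimp-1 of effector lymphocytes and rose from 7.80 ± 1.31 to 26.4 ± 7.47 CPM (SD, n = 3), a log2 fold change of 1.76 (adjusted p = 0.0437 in edgeR). Osm, a cytokine gene, and Socs3, a feedback inhibitor, had log2 fold changes of 2.66 and 1.76 (adjusted p = 0.0547 and 0.0665), and of 2.84 and 1.42 without luteolin replicate 2 (adjusted p = 0.0447 and 0.0719). Cish, a feedback inhibitor that STAT5 induces, overlapped between the groups with a log2 fold change of 0.33 (95% confidence interval -0.51 to 1.17), which turned to -0.045 without luteolin replicate 2. Bcl2, a survival gene, and Myc, a growth gene, had log2 fold changes of -0.04 and -0.02, and of 0.18 and 0.12 without that library. Over the 52 further genes of the 4 pathway lists, 48 were tested and 38 had a higher fitted level in the luteolin group, beside the 49.3% over all genes tested.

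**Figure D5:**
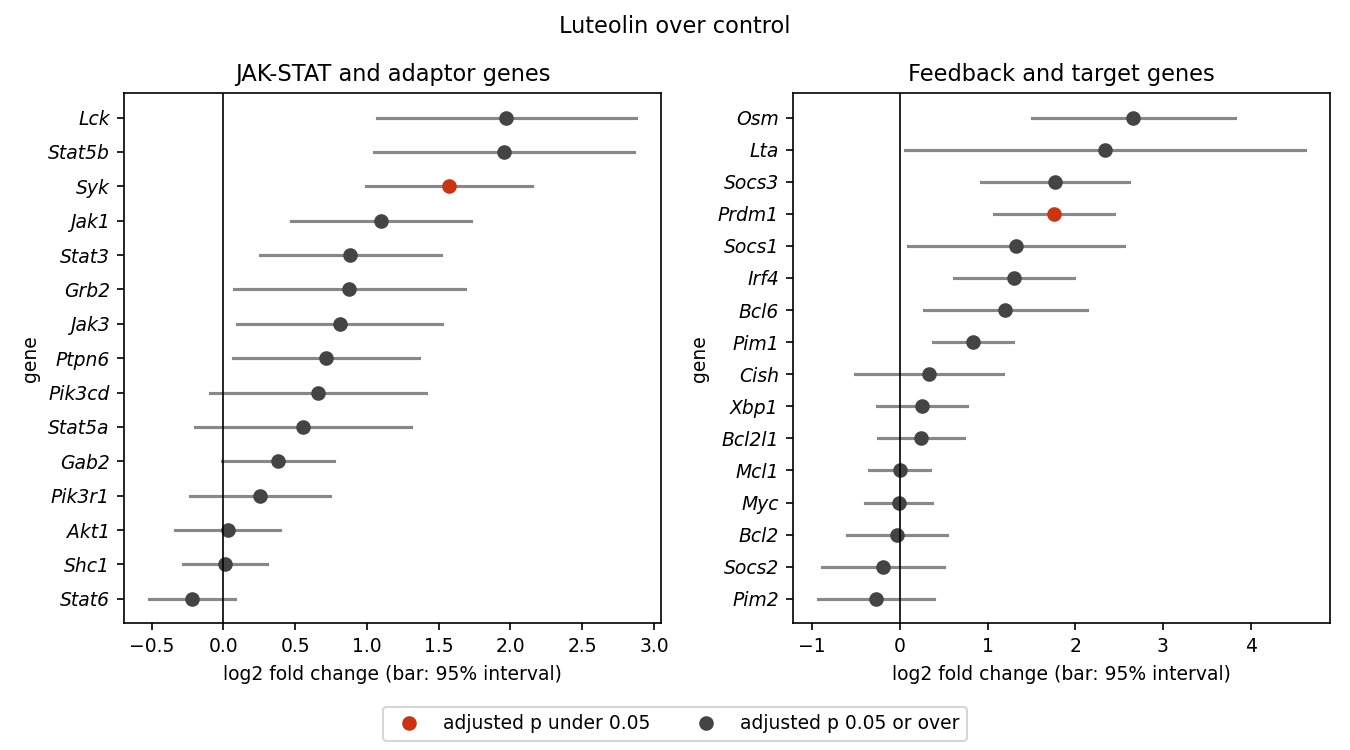
Log2 fold change of the luteolin over the control group (points, with 95% confidence intervals as bars) for the 15 tested genes for kinases, STAT proteins and adaptors and for the 16 feedback and target genes. Syk at 1.57 and Prdm1 at 1.76, in red, passed an adjusted p of 0.05, and Stat6, Socs2 and Pim2 lie lowest.

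Matches to further patterns are shown for the genes that hold them, each with 30 bases of its window, the match in capitals. Both strands were searched, and in the first Il15ra window and Il21r the match reads on the strand opposite to that printed. The STAT-type pattern TTCNNNGAA was found in 1 of the 8 windows, that of Il7r, and in 8.3% of all windows. The longer interferon-type pattern, GAAA and GAAA separated by 2 bases of any kind, was found in 0 of the 8 windows and in 3.44% of all. Its shorter form GAAANNGAA, chosen after the windows had been read, was found in both windows of Il15ra and in 8.56% of all. The sequences are from RefSeq on GRCm38.p6, for Il7r chr15:9529999-9530028, minus strand, for the first Il15ra window chr2:11705134-11705163, plus strand, for its second chr2:11705732-11705761, plus strand, and for Il21r, with the NF-κB-type pattern, chr7:125603188-125603217, plus strand.
Il7r: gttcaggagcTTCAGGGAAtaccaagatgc
Il15ra first window: tcaccccttcTTCCATTTCaaacacttggc
Il15ra second window: aagcaaaagcGAAAGCGAAtactccttagc
Il21r: ttcaagaagtGGCAAGTCCCacttcactgc
The match of Il7r begins 142 bases before the start site, and that of the second Il15ra window 31 bases from the start site within the transcript. The match of Il2ra shown above begins 201 bases before its start site. In the RefSeq annotation of the same build Il2ra and Il15ra are neighbours with 0 protein-coding and 2 other genes between them, and Il4ra and Il21r are neighbours with 0 genes between them. Both genes of the first pair had log2 fold changes over 2, and those of the second pair differed, at 0.94 and 1.80. Il2ra overlaps the long non-coding gene Gm39760 and Il7 overlaps Gm16685, and without strand information their reads cannot be told apart there.

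The genes whose log2 CPM followed a receptor gene most closely over the 6 libraries were also listed, as a description. For Il2rb these were Tor3a, Poli and Gimap3, each with a Pearson correlation of 0.996. For Il2rg they were Pdzrn3 with 0.997 and Pou2af1 and Il18r1 with 0.996, and for Il7r they were Lrrc8c with 0.997, Tgtp1 with 0.996 and Ms4a6d with 0.995. For Il15 the closest were Lrrc15, Rnf19b and Arfgef3, at 0.973, 0.972 and 0.970. With 14954 candidate genes and 6 libraries in separate groups, high values are common, and 9, 21 and 11 genes exceeded 0.99 for Il2rb, Il2rg and Il7r and 0 for Il15.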

How the data were processed

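RNA from control and 200 mg/kg luteolin H22 tumours was sequenced in 3 libraries per group, and all 6 columns of the deposited table were used (0 left out). Values were deposited by the authors as whole numbers per gene symbol, not scaled between libraries, and were treated as estimated counts, because multiples of 4 made up 44.8% of values between 1 and 40, so that 1 unit need not be 1 read pair. The submitters' processing notes name bcl2fastq 2.0, HISAT2, StringTie, DESeq2 and the builds rn6 and mm39 without giving roles. The annotation is not given in the sources used here. The labels and the study's methods name different extraction and library kits.

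The groups were compared with edgeR 4.0.16 in R 4.3.3 (normalization by TMM, filterByExpr, quasi-likelihood test, no covariates) over 14963 genes, with two-sided p values adjusted by the Benjamini-Hochberg method. The standard error is the absolute log2 fold change divided by the square root of the F statistic. Log2 CPM had a prior count of 2. Exon lengths came from GENCODE M21 (all 10 genes matched). Single values within libraries were compared by exact permutation tests, whose smallest p is 0.1. The pipeline was tested on simulated data. Alternatives were DESeq2 1.42.0, voom with quality weights (limma 3.58.1), RLE and upper-quartile normalization, no filter, at least 10 counts in every library, values divided by 4, a replicate block, and leaving out 1 library at a time. GC content and length offsets (splines with 4 and 3 degrees of freedom) and DESeq2 without luteolin replicate 2 were added after the data were seen.

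The genes, the 20 gene lists and the rule for named genes were chosen with earlier results of these data known. The rule names the 10 genes, the other family genes, the 3 top genes by p in each of the signalling, feedback and IL-4 target lists, the most abundant gene of each of the 14 cell marker lists, and the 3 closest genes of Il2rb, Il2rg, Il15 and Il7r. Other genes named were chosen after their values were seen. Library totals ranged from 61081637 to 80442954. The size of the counting error at a given count is not known, because a unit of these values need not be a read pair. It weighs most on genes with few counts, such as Il7 with 8 to 25 counts per library and Il15 with 39 to 136.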

Additional observations from a re-analysis of the deposited data

How the results depend on the processing

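Over the alternatives run, the sign of every tested gene of the gamma-chain system was kept, in 142 of 142 values, and RLE and upper-quartile normalization left the adjusted calls at Il2ra and Il2rg. The number of these genes higher at an adjusted p under 0.05 was 2, and it was 7 in DESeq2, 8 in voom, 6 with GC content and length offsets, 4 with at least 10 counts in every library, 4 with values divided by 4, 0 without a filter on low counts and 0 with the replicate block, the last 2 with 7 genes at an unadjusted p under 0.05 in edgeR. It was 0 to 3 with each library left out in turn (3 without luteolin replicate 2, 0 without any other, 7 to 8 at an unadjusted p under 0.05) and 7 in DESeq2 without luteolin replicate 2. These numbers are read beside the calls over all genes, which also moved with the setting. Of all genes tested, 1.34% were higher at the adjusted threshold in the main fit and 9.58% in DESeq2. Counts over all genes in further settings are given below. The causes were not tested.

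Without a filter the log2 fold changes of Il2ra and Il2rg were 2.19 and 0.93 and no longer passed. In DESeq2, values past the adjusted threshold were 2.16 for Il2rb, 2.24 for Il7r, 2.62 for Il15ra, 1.78 for Il21r and 0.92 for Il4ra, and without luteolin replicate 2 in DESeq2 1.70, 2.5, 1.87, 1.38 and 0.78 for the same 5 genes. In voom they were 1.56 for Il15, 1.67 for Il2rb, 2.79 for Il7r, 1.80 for Il15ra, 1.56 for Il21r and 0.90 for Il4ra. GC content and length offsets gave 1.79 for Il2rb, 2.30 for Il7r, 2.40 for Il15ra and 1.40 for Il21r, at least 10 counts 2.19 for Il2rb and 1.80 for Il21r, and values divided by 4 gave 2.19 and 1.79. The offsets also took Il2rg from 0.95 to 0.67, still past the adjusted threshold, and Il4ra from 0.94 to 0.63. With them Il15 fell outside the study's threshold, at 0.90 (unadjusted p = 0.126 in edgeR). Il7r alone was higher with the offsets than without them. With libraries left out, ranges were 2.05 to 2.52 for Il2ra, 1.70 to 2.47 for Il2rb, 0.84 to 1.00 for Il2rg, 1.83 to 3.0 for Il7r, 1.87 to 2.88 for Il15ra, 1.38 to 1.98 for Il21r and 0.77 to 1.04 for Il4ra.

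Over all genes, 200 were higher and 28 lower at an adjusted p under 0.05. The counts were 1543 and 415 in DESeq2, 1886 and 1311 in voom, 345 and 47 with at least 10 counts, 327 and 46 with values divided by 4, 555 and 308 with GC content and length offsets, and 1076 and 396 in DESeq2 without luteolin replicate 2. The genes lower at the study's threshold, 227, became 498 in voom, 468 with the offsets and 374 in DESeq2 without luteolin replicate 2. Of the 48 further pathway genes, 2 were higher at the adjusted threshold, against 15 in DESeq2, 22 in voom, 6 with at least 10 counts, 6 with values divided by 4, 8 with the offsets and 17 in DESeq2 without luteolin replicate 2, and 0 were lower, against 2, 3, 1 and 1 in DESeq2, voom, the offsets and DESeq2 without luteolin replicate 2. With each library left out in turn, 0 to 276 genes were higher and 0 to 36 lower at the adjusted threshold and 140 to 305 lower at the study's, and of the further pathway genes 0 to 6 were higher and 0 to 1 lower at the adjusted threshold and 1 to 4 lower at the study's. The counts at the adjusted threshold were 0 without control replicates 1, 2 or 3 or luteolin replicate 1, with 1139 to 2104 genes higher at the study's threshold over all 6 settings, while without luteolin replicate 2 they were 276 and 36.

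Replicate numbers are shared by the groups, but same-numbered libraries did not deviate together over all genes (Pearson correlations of -0.196, -0.0920 and 0.0630). With 3 libraries per group these correlations cannot show whether same-numbered libraries were handled together. With the replicate block, 34 genes were higher and 1 lower at the adjusted threshold, 0 of the further pathway genes were higher, and Il2ra and Il2rg had log2 fold changes of 2.25 and 0.95 with adjusted p values of 0.0963 and 0.108 in edgeR. With 1 library left out, levels relative to the marker lists and the ratios moved by less than the larger of the SDs of the groups. That SD was wide for some ratios, at 1.32 for Il15 relative to Il15ra (luteolin) and 1.67 for Il7 relative to Il7r (control). These ratios, at -1.31 and -1.81, ranged from -1.73 to -0.55 and from -2.51 to -0.89 with libraries left out.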

Other observations

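Of 12 genes that IL-4 and STAT6 are known to induce, 11 were tested. At the study's threshold 3 were higher and 2 lower, where 11.3% of all genes tested were higher and 1.52% lower. Clec10a, 1 of the 3, fell outside it without luteolin replicate 2, its log2 fold change going from 1.14 to 0.66. Arg1 and Mrc1 came inside it without that library, their log2 fold changes going from 0.69 to 1.05 and from 0.74 to 1.01. The adjusted threshold was passed by 0 genes in edgeR in either direction with all libraries, and DESeq2 called 2 in each direction. Without luteolin replicate 2, Arg1 (adjusted p = 0.0317 in edgeR), Cdh1 and Ccl17 passed it. The chemokine gene Ccl22 was at 2.55 ± 0.259 CPM in the control and 8.88 ± 5.40 in the luteolin group (SD, n = 3), with a log2 fold change of 1.80 (adjusted p = 0.109 in edgeR), or 1.19 (adjusted p = 0.0988) without luteolin replicate 2, while Ccl17, whose product binds the same receptor CCR4, was at 3.58 ± 0.916 and 1.01 ± 0.685 CPM, or -1.82 as log2 fold change (adjusted p = 0.157), or -2.51 (adjusted p = 0.0482) without that library. Every luteolin library lay above the controls for Ccl22 and below them for Ccl17. Mgl2, a macrophage lectin, had 77.6, 77.8 and 84.3 CPM in the control libraries and 20.2, 18.1 and 57.8 in the luteolin libraries. Chil3, a chitinase-like protein gene of alternatively activated macrophages, had 580 CPM in luteolin replicate 3 and between 5.89 and 38.7 CPM in the other 5 libraries. Cdh1 was listed as an IL-4 target of macrophages and is also a gene of epithelia. It had 28.6, 151 and 20.3 CPM in luteolin replicates 1, 2 and 3 against 3.83 to 5.94 in the controls. Its log2 fold change was 3.76 (adjusted p = 0.0758 in edgeR), or 2.34 (adjusted p = 0.0244) without luteolin replicate 2. The keratinocyte sums of luteolin replicates 1, 2 and 3 were 416, 9345 and 17.3 CPM, and their part in the Cdh1 values was not tested.

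Summed levels of other cells that could carry or make these cytokines were compared in CPM. The 8 B-cell genes, led by Cd79b, summed to 9.44 to 32.5 in the luteolin group against 3.18 to 5.81 in the control group, and the 7 mast-cell genes, led by Hdc, to 34.1 to 115 against 4.81 to 12.1. The 8 neutrophil genes, led by Csf3r, summed to 125 to 229 against 46.3 to 52.4, and the 10 stromal genes, led by Col3a1, to 2115 to 5118 against 1438 to 1610. Of the 7 neutrophil genes tested, 5 lay above the controls in every luteolin library, where 15.9% of all genes tested did. Ly6g and Retnlg overlapped between the groups, with log2 fold changes of -0.57 and 0.43. Camp, not tested, was at 0 counts in the controls and luteolin replicate 1. The sums of the groups overlapped for 11 dendritic-cell genes (109 to 222 against 102 to 136, led by Cacnb3), 7 endothelial genes (121 to 323 against 102 to 122, led by Pecam1), 6 adipocyte genes (16.8 to 355 against 13.9 to 70.2, led by Fabp4), 6 muscle genes (205 to 1008 against 392 to 954, led by Myh4), and 11 liver genes in the table (79.2 to 198 against 45.9 to 138, led by Afp). The dendritic sum was mostly Cacnb3, with means of 58.4 CPM in the control and 63.2 in the luteolin group, and Zbtb46, with 30.5 and 24.4. Of the 11 dendritic-cell genes, 8 lay above the controls in every luteolin library, where 15.9% of all genes tested did. Krt14 led the keratinocyte genes and Lyz2 the macrophage genes.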
